A study of Mus musculus with 12 samples.

Results

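The transcripts of 9 nonsense-mediated decay (NMD) factors were measured in granule cell progenitors of the mouse cerebellum, which divide after birth and give rise to granule neurons, with a Znhit3 knockout and without it. The 9 genes, Upf1, Upf2, Upf3a, Upf3b, Smg1, Smg5, Smg6, Smg8 and Smg9, were chosen by name for their role in this pathway, and all were found among the 31091 genes of the P3 table. Upf1 and Upf3a lie on chromosome 8, Smg1 and Smg9 on 7, Smg6 and Smg8 on 11, Upf2 on 2, Smg5 on 3 and Upf3b on X. One group was progenitors of mice with a Znhit3 conditional knockout (cKO) at postnatal day 3 (P3), with 3 libraries. It was set against progenitors of WT mice of the same age, called control, also with 3 libraries. Another 6 libraries, 3 per genotype at postnatal day 6 (P6), were not analysed here. The sources used here name no Cre driver, strain, sex or pooling of animals, and do not say whether libraries of a group came from separate animals. All p-values thus reflect only how much these libraries vary, which may be technical.

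NMD is the pathway that degrades messenger RNAs whose translation stops too early, as judged by an exon junction complex left downstream of the stop codon or by a long 3′ untranslated region. The helicase UPF1 is bridged to the exon junction complex by UPF2 and UPF3, phosphorylated by the kinase SMG1, and then bound by SMG5 and SMG6, which start decay of the RNA. The pathway also removes the spliced RNAs of many non-coding host genes of small nucleolar RNAs (snoRNAs). ZNHIT3 takes part in building the box C/D particles that carry many such snoRNAs. In human cells the mRNAs of several NMD factors are themselves NMD substrates, so that their levels are known to rise when the pathway is less active.

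Of the 9 NMD factors, Upf1 rose in cKO, by 13.4% of its mean level, and the other 8 did not pass the test. The kinase gene Smg1 was 13.5% and its partner gene Smg8 12.3% higher in mean level in cKO without passing. In the fit as reported only Upf3a and Smg9 had negative differences, as did 5699 of the 13538 genes tested. Across the 13538 genes tested 19.1% passed, 13.4% as higher and 5.74% as lower in cKO, so 1 higher and 0 lower of 9 members is near that background. The 3 cKO values lay all above the 3 control values for Upf1 and Smg1, that is for 2 of 9 members, against 27.3% of all tested genes. No member had all cKO values below the control values, an order found in 13.2% of tested genes, and groups without overlap in either direction made up 40.5%. The median difference of the 9 members was 0.04 and that of all tested genes 0.03 on the log2(FPKM + 1) scale. FPKM stands for fragments per kilobase of gene and per fixed number of counted reads. Each difference is the cKO mean less the control mean of log2(FPKM + 1), which understates the change of low genes. Adjusted p-values are from limma with Benjamini-Hochberg adjustment over all tested genes, and a gene passed at an adjusted p under 0.05.

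The libraries held between 29119803 and 52961445 counted reads, and each member had at least 954 reads in every library. Znhit3 measured 4.03, 4.01 and 4.57 FPKM in cKO, against 9.15, 8.62 and 8.58 FPKM in control, so its level in cKO was 47.8% of that in control (log2 difference -0.91 ± 0.06, SE; limma adjusted p = 0.00024). Which exons were deleted is not given, so reads from the remaining exons may count toward that value. The libraries also differed in what they contained besides these factors. Summed markers of granule progenitors measured 820 to 868 FPKM in cKO and 1019 to 1098 FPKM in control. Of these 8 markers 3 were lower in cKO and the other 5 did not pass. Differences were negative for 6 of the 8 and positive for Gli1 (0.02) and Ccnd2 (0.07). Markers of differentiating granule neurons summed to 315 to 339 FPKM in cKO and 394 to 426 FPKM in control, with 3 of 5 lower. Endothelial markers summed to 211 to 228 FPKM in cKO and 118 to 129 FPKM in control, with 7 of 7 higher, and GABAergic interneuron markers to 104 to 112 FPKM in cKO and 81.0 to 87.3 FPKM in control, with 6 of 7 higher and 1 lower. Pericyte markers were higher in 5 of 5 cases, microglial markers in 4 of 6, oligodendrocyte markers in 5 of 6, astroglial markers in 4 of 6, erythroid markers in 4 of 5 and Purkinje markers in the 2 that could be tested of 5. Choroid plexus markers summed to 626 to 705 FPKM in cKO and 1340 to 1428 FPKM in control, with 5 of 5 tested lower. No marker of any of these lists was at 0 in all libraries. Xist, the RNA of the inactive X chromosome, measured 23.7 to 24.6 FPKM in cKO and 50.2 to 56.4 FPKM in control, and 4 of 4 Y-linked genes tested were higher in cKO. Markers of other cell types and of sex thus moved with genotype, and their part in the results on NMD factors was not tested.

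Upf1 (ENSMUSG00000058301) encodes the RNA helicase at the centre of the pathway. It measured 21.0, 22.6 and 22.4 FPKM in cKO, against 19.5, 19.5 and 19.3 FPKM in control. The groups did not overlap, and the control libraries lay within a narrow range. The means were 22.0 ± 0.84 FPKM in cKO and 19.4 ± 0.12 FPKM in control (SD, n = 3 each), a log2 difference of 0.17 ± 0.04 (SE; 95% interval 0.07 to 0.27) with a limma adjusted p of 0.029. The exact two-sided permutation test on Upf1 alone gave p = 0.10, the smallest p that 3 against 3 libraries allow. The difference stayed positive in all 22 alternatives, but it did not pass in 10 of them. These 22 include the same fit read at an adjusted p under 0.1, which could change neither the sign nor a pass. Adjusted p-values were 0.414 with upper quartile scaling, 0.0654 with TMM factors and 0.0740 once the trend with gene length was taken out. Leaving out 1 library gave 0.0231 without cKO replicate 1, 0.114 and 0.0827 without cKO replicates 2 and 3, and 0.0600, 0.0754 and 0.0809 without control replicates 1, 2 and 3. In these bulk samples a change in the number of cells of a type and a change in RNA per cell cannot be told apart. Upf1 shares 68 bases with Cers1 on the other strand, and Cers1 averaged 3.75 FPKM in cKO and 3.83 FPKM in control.

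**Figure D1:**
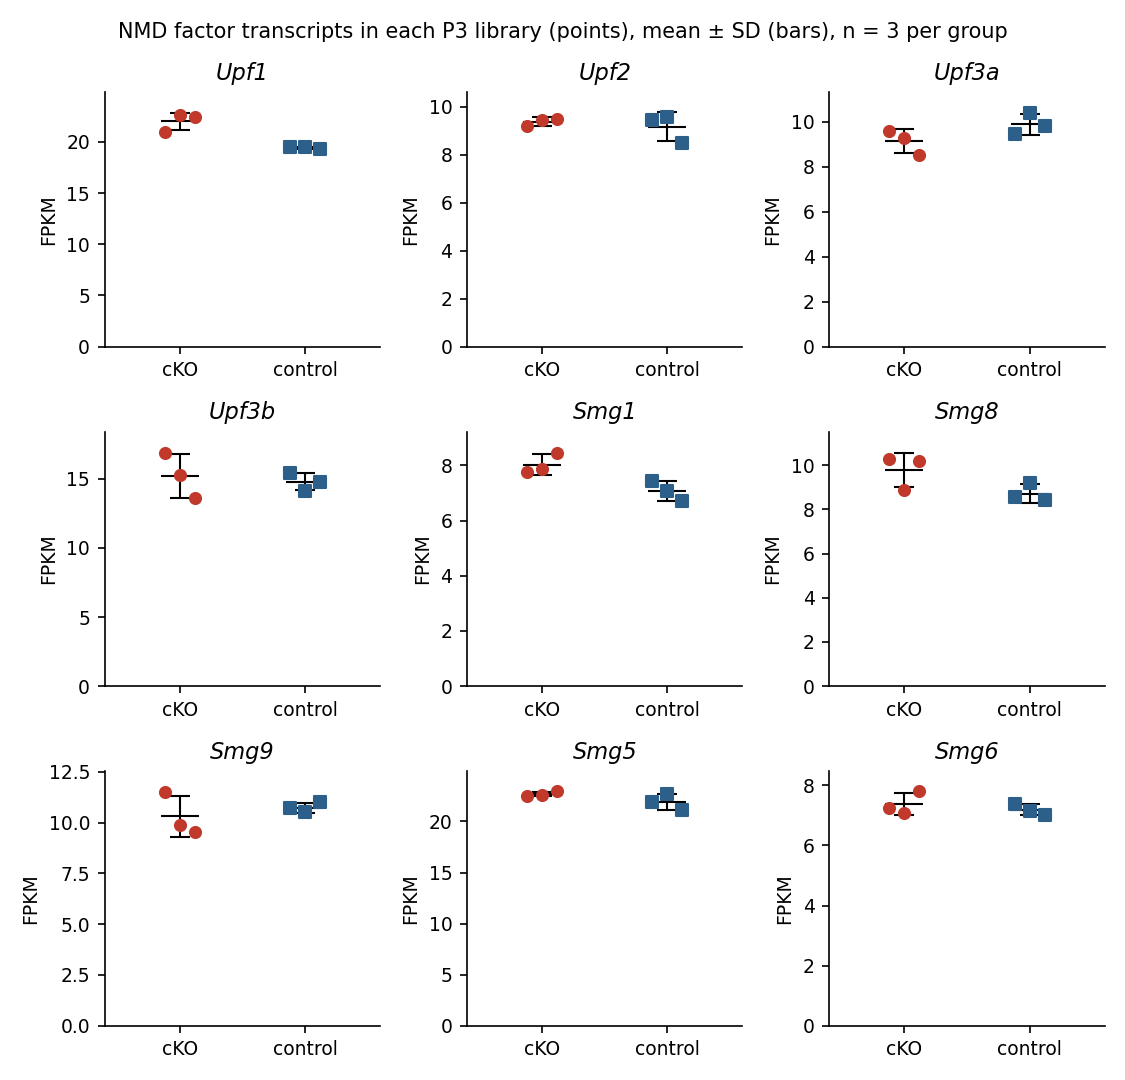
FPKM of the 9 NMD factors in each of the 6 P3 libraries, one panel per gene with the y axis from 0; points are libraries, bars are the mean ± SD of 3 cKO or 3 control libraries. The cKO points of Upf1 (21.0 to 22.6 FPKM) and Smg1 (7.76 to 8.46 FPKM) lie above all control points, and the groups of the other 7 genes overlap.

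Upf2 encodes the bridge between UPF1 and the UPF3 proteins. It measured 9.20, 9.46 and 9.51 FPKM in cKO, against 9.45, 9.58 and 8.49 FPKM in control, with overlapping groups and a log2 difference of 0.03 ± 0.05 (SE; 95% interval -0.09 to 0.16). Its limma adjusted p was 0.71. The paralogs Upf3a and Upf3b encode the proteins that dock on the exon junction complex, of which UPF3B is the more active in NMD, and human UPF3B variants are a known cause of intellectual disability. Upf3a measured 9.61, 9.29 and 8.54 FPKM in cKO, against 9.46, 10.4 and 9.82 FPKM in control. Its groups overlapped through control replicate 1, and the log2 difference of -0.10 ± 0.06 (SE; 95% interval -0.23 to 0.03) had a limma adjusted p of 0.23. Upf3b, on the X chromosome, measured 16.9, 15.3 and 13.6 FPKM in cKO, against 15.4, 14.1 and 14.8 FPKM in control. The cKO libraries spanned the whole control range, and the log2 difference was 0.04 ± 0.07 (SE; limma adjusted p = 0.74). The sex-linked genes differed between the same groups, and their part in the Upf3b value was not tested.

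Within each library the log2 ratio of Upf3a over Upf3b was -0.81, -0.72 and -0.67 in cKO, against -0.70, -0.44 and -0.59 in control. The difference of the ratios was -0.15, the groups overlapped, and the exact two-sided permutation p was 0.20 (0.30 after Benjamini-Hochberg adjustment over 3 ratios). The ratio was below 0 in every library, so Upf3a had the lower FPKM of the pair throughout. Its sign depends on the deposited lengths, 5865 bases for Upf3a and 3999 bases for Upf3b, whose coding parts have 1266 and 1416 bases. Which paralog has more transcripts was therefore not settled.

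Smg1 (ENSMUSG00000030655) encodes the kinase that phosphorylates UPF1, a member of the phosphatidylinositol 3-kinase-related kinase (PIKK) family. It measured 7.76, 7.87 and 8.46 FPKM in cKO, against 7.42, 7.08 and 6.72 FPKM in control. All cKO values lay above all control values, by a small gap between cKO replicate 1 and control replicate 1. The log2 difference was 0.16 ± 0.05 (SE; 95% interval 0.04 to 0.29) with a limma adjusted p of 0.071, which did not pass. It passed with voom on the recovered reads (0.18, adjusted p = 0.0113), with array weights (0.16, adjusted p = 0.0454) and with TPM scaling (0.20, adjusted p = 0.0497). With the length trend taken out the Smg1 difference was 0.08 with an adjusted p of 0.299; at 23984 bases its length in the table is the greatest of the 9.

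Smg8 and Smg9 encode the proteins that bind SMG1 and hold its kinase activity in check. Smg8 measured 10.3, 8.89 and 10.2 FPKM in cKO, against 8.54, 9.19 and 8.41 FPKM in control. The cKO replicate 2 value lay below that of control replicate 2, so the groups overlapped, and the log2 difference of 0.15 ± 0.06 (SE) had a limma adjusted p of 0.14. Smg8 lies 2.16 Mb from Znhit3 on chromosome 11, as the deposited table gives the positions. Of 74 tested genes within 3 Mb of Znhit3, 13 were higher and 4 lower, with a median difference of 0.07. Among all tested genes 13.4% were higher and 5.74% lower, with a median of 0.03. The 3 Mb window around Znhit3 was chosen after the distance of Smg8 was known. The other chromosome 11 member, Smg6, lies 9.75 Mb away. Smg9 measured 11.5, 9.90 and 9.56 FPKM in cKO, against 10.7, 10.5 and 11.0 FPKM in control, with a log2 difference of -0.05 ± 0.07 (SE; limma adjusted p = 0.59). Its cKO libraries lay on both sides of the control range.

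The log2 ratio of Smg8 over Smg9 within a library was -0.16, -0.16 and 0.09 in cKO, against -0.33, -0.19 and -0.38 in control. All 3 cKO ratios were above all 3 control ratios, with a difference of 0.23. The exact two-sided permutation p was 0.10, the smallest that this design allows, and 0.30 after adjustment over 3 ratios.

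Smg5 encodes an adaptor that binds phosphorylated UPF1 and brings in the phosphatase and the decapping and deadenylation enzymes. It measured 22.5, 22.6 and 23.0 FPKM in cKO, against 21.9, 22.7 and 21.1 FPKM in control, and its log2 difference was 0.05 ± 0.04 (SE; limma adjusted p = 0.45). Smg6 encodes the endonuclease that cuts the target RNA near the stop codon. It measured 7.26, 7.07 and 7.81 FPKM in cKO, against 7.39, 7.15 and 7.03 FPKM in control, with a log2 difference of 0.03 ± 0.05 (SE; limma adjusted p = 0.68). The groups overlapped for both genes, and their intervals ran between -0.05 and 0.14 for Smg5 and between -0.08 and 0.15 for Smg6. The log2 ratio of Smg5 over Smg6 averaged 1.62 ± 0.06 in cKO and 1.61 ± 0.05 in control (SD, n = 3 each; exact permutation p = 0.90).

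**Figure D2:**
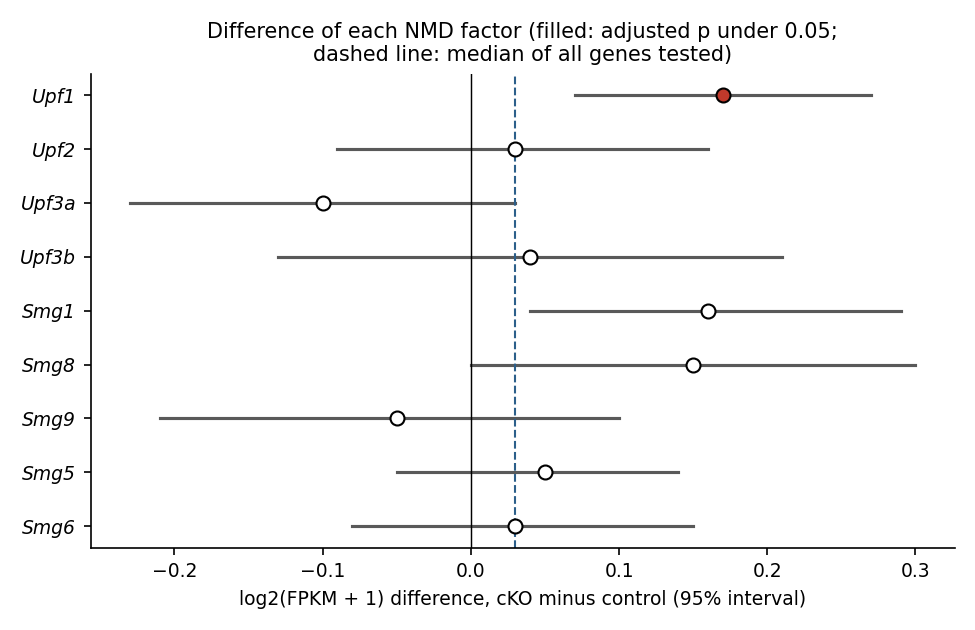
Difference of each NMD factor on the log2(FPKM + 1) scale, cKO minus control, from the limma fit over all genes; points are estimates, lines 95% intervals, the filled point passed at an adjusted p under 0.05 and the dashed line is the median of all tested genes (0.03). Upf1 (0.17), Smg1 (0.16) and Smg8 (0.15) stand to the right, and the lines of the other 6 genes cross 0.

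The levels of the 9 genes lay within a 3.10-fold range in control. In cKO the order by FPKM was Smg5, Upf1, Upf3b, Smg9, Smg8, Upf2, Upf3a, Smg1 and Smg6, and in control it was Smg5, Upf1, Upf3b, Smg9, Upf3a, Upf2, Smg8, Smg6 and Smg1. FPKM is per deposited gene length, so the order of the genes also depends on those lengths. For Upf3a it was 5865 bases, where the transcript with the longest coding part has 1266 coding and 722 3′ untranslated bases. For Upf1 it was 4618 bases, against 3372 and 961 bases. In control Smg5 (21.1 to 22.7 FPKM) and Upf1 (19.3 to 19.5 FPKM) did not overlap, whereas in cKO they did. Upf3b stood apart from its neighbours in both groups. In cKO Smg9 overlapped with Smg8, Smg8 with Upf2 and Upf2 with Upf3a, and in control Upf3a overlapped with Upf2 and Upf2 with Smg8. Smg1 and Smg6 overlapped in both groups. The lowest member, by its mean over all libraries, was above 50.0% of tested genes, and the highest above 81.3%. The coefficient of variation within a group ran between 0.617% and 10.8%. The 9 values summed to 116, 113 and 113 FPKM in cKO, against 110, 110 and 107 FPKM in control.

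The number of members that passed moved with the scaling, as did the share of all genes. It was 2 of 9 with voom, where 27.6% of all genes passed and 19.4% as higher. It was 2 with TPM scaling, where 22.2% passed and 18.1% as higher, and 2 with array weights, where 27.5% passed and 18.8% as higher. With quantile normalization 1 of 9 passed, against 14.1% of all genes and 8.00% as higher. None of the 9 passed with upper quartile scaling (9.95% of all genes, 3.91% as higher), TMM factors (18.4%, 9.09% as higher) or the length trend taken out (16.3%, 8.62% as higher). By limma as reported, 3 of 9 members were higher and 0 lower at an unadjusted p under 0.05, against 23.8% of all tested genes higher and 12.0% lower.

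The differences of the 9 were small beside those of other genes. The median absolute difference of the 9 was 0.05, that of all tested genes 0.11, and that of the genes that passed 0.29 on the log2 scale. In the authors' deposited table no member passed at an adjusted p under 0.05, while 23.1% of the 16021 genes with an adjusted value below 1 did. Upf1 had a log2 fold change of 0.13 (adjusted p = 0.070) and Smg1 one of 0.13 (adjusted p = 0.063) in the authors' deposited table. Upf3a stood at -0.16 (adjusted p = 0.070) in the authors' deposited table. Upf2 (-0.02), Upf3b (-0.01), Smg6 (-0.02) and Smg9 (-0.11) were also negative there. Smg5 stood at -0.00 and Smg8 at 0.11.

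The promoters of Upf1 and Smg1 are shown because these were the 2 members whose groups did not overlap. The 250 bases before each gene's start are from RefSeq on the build GRCm38.p6, 5′ to 3′ on the gene's strand, and capitals mark matches to GCGCATG (part of the NRF1 motif), GGGCGG (the SP1 box) and CCAAT on either strand. A match may overlap another, as the 2 NRF1-type matches in Upf1 do.
Upf1, chr8:70353280-70353529, minus strand: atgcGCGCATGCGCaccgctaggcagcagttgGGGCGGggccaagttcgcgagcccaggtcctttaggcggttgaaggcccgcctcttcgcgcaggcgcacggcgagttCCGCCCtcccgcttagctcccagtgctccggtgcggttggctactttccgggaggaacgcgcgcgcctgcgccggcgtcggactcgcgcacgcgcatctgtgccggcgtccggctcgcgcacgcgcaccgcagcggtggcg
Smg1, chr7:118243638-118243887, minus strand: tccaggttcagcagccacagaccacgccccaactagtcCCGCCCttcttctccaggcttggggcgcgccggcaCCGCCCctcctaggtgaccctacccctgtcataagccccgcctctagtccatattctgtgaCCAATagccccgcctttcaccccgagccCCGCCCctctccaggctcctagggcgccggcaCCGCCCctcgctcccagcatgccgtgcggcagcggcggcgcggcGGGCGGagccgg
GCGCATG is in the window of Upf1, in that of no other member, and in 3.24% of 32851 RefSeq promoter windows of this length. GGGCGG is in the windows of 7 of the 9 members, all but Smg5 and Smg8, and in 32.7% of all windows. CCAAT is in those of Smg1, Smg8, Upf3a and Upf3b and in 33.8% of all windows, and CCGGAAG, an ETS-type motif, in that of Smg8 and in 6.91% of all. TATAAA and CACGTG are in none of the 9 windows and in 12.4% and 6.02% of all windows. The windows of Upf1 and Smg1 have 72.8% and 70.8% G and C, against a median of 52.4% over all windows. A match describes these letters only.

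In the GENCODE M21 annotation, matched by gene ID, 3 of the 9 genes have a transcript annotated as an NMD substrate, namely Smg1, Smg5 and Smg6 with 1 each. Retained-intron transcripts are annotated for Smg1 and Smg5 (5 each), Smg9 (4), Upf3a (2) and Smg6 (1). The 3′ untranslated region of the transcript with the longest coding part has 4236 bases in Smg1, which is longer than in 94.3% of tested protein-coding genes, and 961 bases in Upf1, close to the median of 996 bases. It is shortest in Smg8, with 224 bases. Gene-level FPKM does not separate productive from NMD-sensitive transcripts, so a change in the share of either was not measured.

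The genes with the profile most like that of Upf1 over the 6 libraries, by the root mean square difference of mean-centred log2(FPKM + 1) values, were Pnpla6 (0.010), Slk (0.014), Gpatch2l (0.015) and Nfs1 (0.015), where the median tested gene had 0.117. Genes named by Gm numbers, Rik clones and pseudogenes were left out of this ranking. These are the smallest of many distances over only 6 values, and whether they are closer than chance would give was not tested. Pnpla6 averaged 6.38 FPKM in cKO and 5.59 FPKM in control, and Slk 13.2 FPKM in cKO and 11.5 FPKM in control.

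Lists of genes around the pathway are given by their counts. Those by limma as reported are to be read against the 13.4% of all tested genes higher and the 5.74% lower. At an unadjusted p under 0.05 these shares were 23.8% and 12.0%. With voom 2628 of 13538 genes were higher and 1104 lower, with TMM factors 1230 and 1266 of 13536. With upper quartile scaling 530 of 13541 were higher and 817 lower, with quantile normalization 1083 and 823 of 13538. With TPM scaling 2450 of 13539 were higher and 550 lower, and with the length trend taken out 1167 and 1038 of 13538. Of all 13538 tested genes 7839 had a positive and 5699 a negative difference, and 5414 were positive with upper quartile scaling. Of 19 genes of cytoplasmic mRNA decay, 5 rose and none fell by limma (6 and 1 at an unadjusted p under 0.05, 6 and 0 with voom), with a list median of 0.03, equal to that of all tested genes. With upper quartile scaling 1 rose, with TMM factors 3 rose and 1 fell, and 2 rose with quantile normalization and with the length trend taken out. Dcp2, which encodes the decapping enzyme, measured 8.36, 9.13 and 9.73 FPKM in cKO, against 7.26, 6.61 and 6.65 FPKM in control, without overlap (log2 difference 0.36 ± 0.06, SE; limma adjusted p = 0.0084). Ddx6, the helicase gene of the decapping complex and of P-bodies, measured 33.9, 34.6 and 36.3 FPKM in cKO, against 30.1, 27.6 and 30.2 FPKM in control (0.25 ± 0.05, SE; limma adjusted p = 0.014). Patl1, a scaffold of decapping, averaged 14.1 FPKM in cKO and 12.5 FPKM in control, and Cnot6l, a deadenylase subunit, 7.17 FPKM in cKO and 5.87 FPKM in control. Dcp1a, the decapping activator, was the fifth to pass. Dcp2 passed in all 22 alternatives, which include the same fit read at an adjusted p under 0.1. Ddx6 did not pass with upper quartile scaling (adjusted p = 0.218) or without cKO replicate 2 (adjusted p = 0.0523). Patl1 did not pass when any 1 library was left out (adjusted p between 0.0644 and 0.102). Cnot6l did not pass without any library other than cKO replicate 1 (between 0.0504 and 0.0957). Neither passed with no filter on low values, upper quartile scaling, quantile normalization, the replicate block or the length trend taken out.

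None of 12 NMD cofactors and termination genes passed in limma (1 higher and 1 lower at an unadjusted p under 0.05, none with voom). With TPM scaling 1 was higher, with quantile normalization 1 was higher and 1 lower, and 1 was lower with upper quartile scaling, with TMM factors and with the length trend taken out. Pabpc1, the poly(A)-binding protein gene, averaged 115 ± 3.1 FPKM in cKO and 107 ± 3.9 FPKM in control, and Pnrc2, a decapping cofactor gene, 82.5 ± 1.4 FPKM in cKO and 79.0 ± 3.4 FPKM in control (SD, n = 3 each). The limma adjusted p of Pabpc1 was 0.13, and it passed with quantile normalization (0.0366) and TPM scaling (0.0436). Of 11 exon junction complex genes none passed in limma. At an unadjusted p under 0.05, 4 were lower, against 12.0% of all tested genes. With voom 2 were lower and with TMM factors 4, against 1104 of 13538 and 1266 of 13536 tested genes. With the length trend taken out 2 were lower, against 1038 of 13538. None of the 11 was lower with TPM scaling, upper quartile scaling or quantile normalization. The list median was -0.07, and 8 of the 11 differences were negative. Magoh, a core subunit gene, measured 87.8, 82.9 and 88.8 FPKM in cKO, against 92.2, 98.3 and 91.4 FPKM in control, without overlap (log2 difference -0.12 ± 0.05, SE; limma adjusted p = 0.12). Eif4a3, the core helicase gene, averaged 83.5 FPKM in cKO and 85.9 FPKM in control.

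Smg1 belongs to a family of large kinases that need the TTT and R2TP chaperones for assembly. Of the 5 other PIKK family genes Trrap, which encodes a scaffold of histone acetyltransferases, rose. It measured 9.22, 9.17 and 9.34 FPKM in cKO, against 8.27, 8.00 and 8.05 FPKM in control (limma adjusted p = 0.027). Trrap did not pass with upper quartile scaling (limma adjusted p = 0.401), quantile normalization (0.111), TMM factors (0.0656) or the replicate block (0.0713). Nor did Trrap pass without any 1 library other than control replicate 1 (between 0.0528 and 0.0866). All 5 differences were positive, with a median of 0.14, or 0.05 with the length trend taken out, when none passed. None of 7 TTT and R2TP genes passed in limma, at an unadjusted p under 0.05 or with voom. Their median was -0.07, and the AAA+ ATPase genes Ruvbl1 and Ruvbl2 averaged 45.5 and 43.6 FPKM in cKO and 48.7 and 44.9 FPKM in control.

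**Figure D3:**
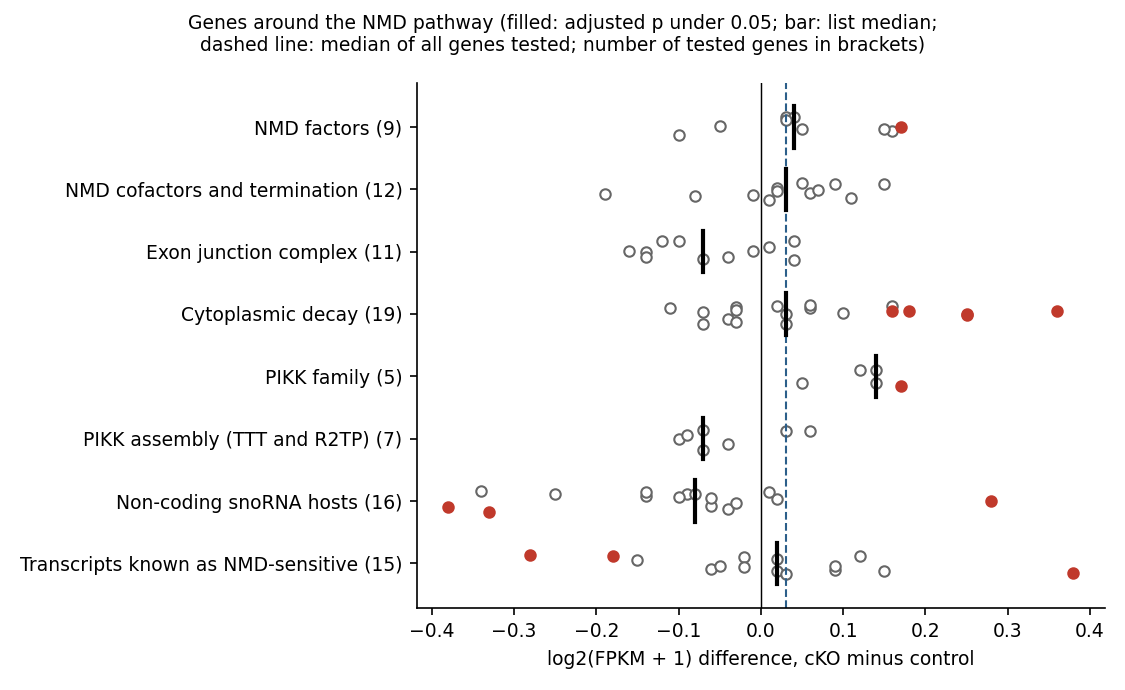
Differences of the NMD factors and of 7 lists of genes around the pathway on the log2(FPKM + 1) scale, cKO minus control; each point is a tested gene, filled points passed at an adjusted p under 0.05, thick bars are list medians and the dashed line is the median of all tested genes. The decay list holds 5 filled points between 0.16 and 0.36, and the medians of the exon junction complex (-0.07), chaperone (-0.07) and snoRNA host lists (-0.08) lie below 0.

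Transcripts known as NMD substrates were taken in a pair of lists. Of 16 non-coding snoRNA host genes that could be tested, 1 rose and 2 fell, against 13.4% of all tested genes higher and 5.74% lower. Differences were negative for 13 of the 16, with a median of -0.08, and for 5699 of all 13538 tested genes. With voom 1 rose and 4 fell, with TMM factors 0 rose and 4 fell, and with upper quartile scaling and quantile normalization 0 rose and 2 fell. Snhg5 fell to 14.0 ± 0.55 FPKM in cKO, against 18.6 ± 0.71 FPKM in control (SD, n = 3 each; limma adjusted p = 0.0024), and Snhg20 to 5.10 ± 0.18 FPKM in cKO, against 6.71 ± 0.87 FPKM in control. Snhg15 rose to 3.60 ± 0.17 FPKM in cKO, against 2.80 ± 0.34 FPKM in control. Snhg5 passed in every alternative. Snhg20 did not pass without any 1 library other than control replicate 1 (adjusted p between 0.0594 and 0.0910). Snhg15 did not pass without any other than control replicate 2 (between 0.0567 and 0.115). With no filter on low values neither Snhg20 nor Snhg15 passed. Snhg15 also did not pass with upper quartile scaling, quantile normalization, TMM factors or the replicate block. Gas5, an NMD substrate in human and mouse cells, measured 23.1, 22.7 and 21.2 FPKM in cKO, against 24.0, 24.2 and 26.2 FPKM in control, and its limma adjusted p of 0.090 did not pass. Of 15 other genes known for NMD-sensitive transcripts, 1 rose and 2 fell, with a median of 0.02. With TPM scaling 1 rose and 1 fell, and with the length trend taken out 1 rose and 3 fell. Atf4, the transcription factor gene of the stress response with upstream reading frames, measured 78.0, 79.8 and 80.3 FPKM in cKO, against 89.0, 100 and 100 FPKM in control (log2 difference -0.28 ± 0.05, SE; limma adjusted p = 0.013). Robo3, an axon guidance receptor gene, rose to 2.28 FPKM in cKO, against 1.51 FPKM in control. Dlg4, which encodes the postsynaptic scaffold PSD-95, fell to 7.05 FPKM in cKO, against 8.12 FPKM in control. Robo3 passed in every alternative run for it, which leaves out the filter at a mean of 5 FPKM. Dlg4 passed in none that left out a library (adjusted p between 0.0590 and 0.0860), nor with no filter on low values, TPM scaling or the replicate block. Atf4 did not pass without control replicate 2 or without cKO replicate 2 (0.0504 for cKO replicate 2). Robo3 and Dlg4 are neuronal genes, and markers of neuronal classes differed between the groups as given above, whose part in these values was not tested.

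**Figure D4:**
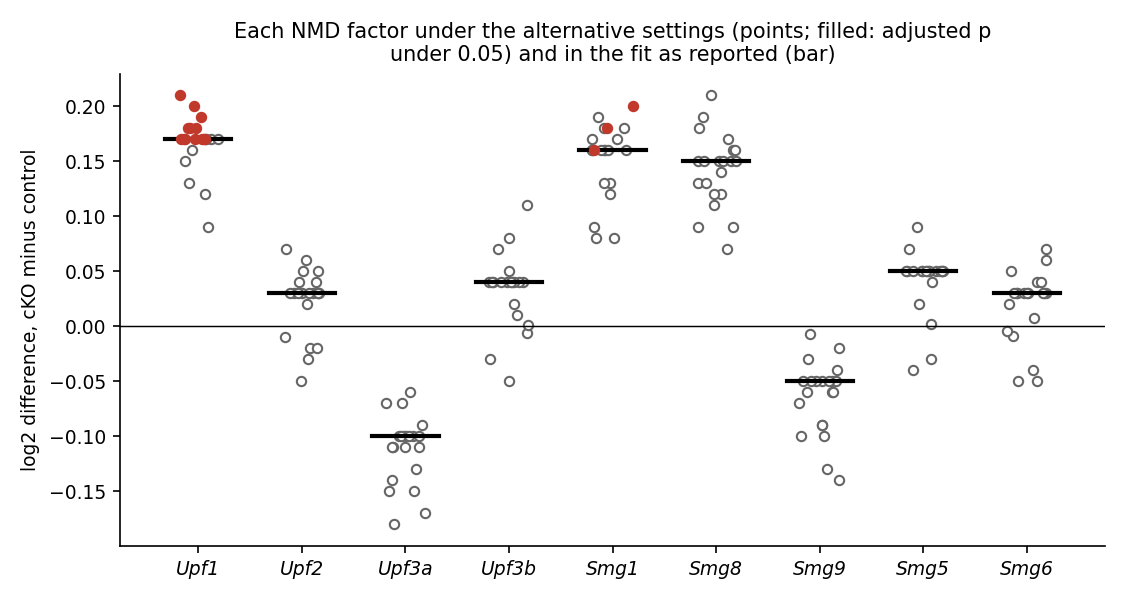
Log2 difference of each NMD factor, cKO minus control, under the alternative settings (points, filled where the adjusted p was under 0.05) and as reported (bars). Upf1, Smg1 and Smg8 stay above 0 and Upf3a and Smg9 below 0 in every setting, and Upf2, Upf3b, Smg5 and Smg6 lie on both sides of 0.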

How the data were processed

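RNA of granule cell progenitors was selected for poly(A), fragmented and made into dUTP-marked paired-end libraries, per the labels' protocols. Tools listed in the submitters' processing notes, without roles, are HISAT2 2.2.1, StringTie 2.1.6, cutadapt 1.9, edgeR and DESeq2, with the build mm10. The sources used here give no annotation, filter or use of strand, so reads of overlapping genes cannot be told apart. The authors deposited FPKM values for 3 cKO and 3 control libraries at P3. The cKO columns carry a prefix that was read as cKO because the other columns are named WT and no other P3 samples are labelled. FPKM times the deposited gene length gave whole reads for 100% of values within 0.05 reads. For a 1 kb gene, 3 reads equal 0.0566 to 0.103 FPKM, depending on the library. Per the file headers, the same table has the authors' mean signal, log2 fold change and its error, test score and p-value, raw and adjusted. Gene positions are the deposited ones, whose build is not stated there. For Upf1 and Smg1 they do not match GRCm38, the build also called mm10. The deposited Upf1 ends at base 70805928 of chromosome 8, but its GRCm38 promoter window starts at base 70353280.

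Differences were tested with limma 3.58.1 in R 4.3.3 on log2(FPKM + 1) with an intensity trend, for genes averaging 1 FPKM or more. On simulated data the fit recovered 34.0% of 50 genes changed 1.25-fold and 83.3% of 48 changed 1.5-fold. It made 14 false calls among unchanged genes, with 13528 genes in the fit. Smaller changes, such as those of the members, were not simulated. Far fewer genes were changed in the simulation than passed in the data, and all genes were given the same biological spread. The recovered shares therefore do not measure the power of the reported fit. No 2 libraries of a group agreed within sampling noise (chi-square per degree of freedom 4.38 to 9.71). The members and lists were chosen with earlier results of these data known. Named were the 9 members, Znhit3 and, per list, up to 4 passing genes with the smallest p, or else the 2 most abundant. Gas5, Dcp1a and Cers1 were named after their values were seen. Of 168 list entries 166 matched a symbol of the table, and of 2 rows with the symbol Snhg4 the non-coding one was used. Alternatives were other pseudocounts, filters, scalings and weights, voom and a replicate block. Others were removal of a length trend, omission of X and Y genes and leaving out each library. The same fit read at an adjusted p under 0.1 was also counted as an alternative. Names in GENCODE were matched by gene ID for 29560 genes.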

Additional observations from a re-analysis of the deposited data

How the results depend on the processing

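The count of NMD factors that passed, 1 as reported, was 2 with TPM scaling, array weights, voom and at an adjusted p under 0.1. It was 0 with no filter on low values, upper quartile scaling, TMM factors, the length trend taken out and the replicate block, and between 0 and 1 when 1 library was left out. The count over all genes, 2590 as reported, was 1271 with no filter, 1347 with upper quartile scaling, 1542 with the replicate block, 4021 at an adjusted p under 0.1 and between 1193 and 2170 when 1 library was left out. The share of higher calls was 70.0% as reported, 39.3% with upper quartile scaling, 49.3% with TMM factors, 52.9% with the length trend taken out, 56.8% with quantile normalization and 81.7% with TPM scaling. Differences changed sign with upper quartile scaling for Upf2 (-0.05), Upf3b (-0.05), Smg5 (-0.04), Smg6 (-0.05) and Pnrc2 (-0.03); with quantile normalization for Upf2 (-0.02), Smg6 (-0.04), Eif4a3 (0.03) and Ruvbl2 (0.01); with TMM factors for Upf2 (-0.01), Upf3b (-0.006) and Smg6 (-0.009); with the length trend taken out for Upf2 (-0.03), Smg5 (-0.03) and Smg6 (-0.05); and with array weights for Ruvbl2 (0.004). None of these had passed. Leaving out 1 library gave -0.02 to 0.06 for Upf2, -0.03 to 0.11 for Upf3b and -0.004 to 0.06 for Smg6. The cause was not tested. Same-numbered libraries did not deviate together (correlations of -0.02, 0.04 and -0.10 for replicates 1 to 3), so the numbers were not read as pairs; with the replicate block Upf1 had an adjusted p of 0.0677. Differences of the size seen in Upf1 and Smg1 lie near the threshold at this depth and with 3 libraries per group. With a pseudocount of 1 the ratio differences were -0.14 for Upf3a over Upf3b, 0.20 for Smg8 over Smg9 and 0.02 for Smg5 over Smg6.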

Other observations

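Of 12054 tested protein-coding genes, 3433 have a GENCODE transcript annotated as an NMD substrate, a split chosen after values were seen. Among these 11.2% were higher and 4.46% lower in cKO, against 15.8% higher and 6.19% lower among the 8621 genes without one. The median log2 differences were 0.032 and 0.040 in that order. The genes with such a transcript are longer, with a median gene length of 5472 bases against 4261 bases, and with the length trend taken out 5.68% of them were higher and 8.45% lower, against 10.3% higher and 7.82% lower among the others. Values are of whole genes, so the level of the annotated NMD transcripts themselves was not measured.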
